A study of Mus musculus with 12 samples.

Results

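The 33 genes described here encode the MHC class I and class II antigen presentation machinery of the mouse: the molecules that carry peptides or lipids to the cell surface, the factors that load them and the transcription factors that act on their promoters. They were listed by symbol and function, with no threshold on a measured value, and all 33 were found among the 53801 genes of the count table and passed the filter on low counts in every comparison. RNA-seq libraries had been made from eosinophils isolated from bone marrow and blood, with 3 libraries for each of 4 groups. The Atg5-knockout mice were Atg5 flox/flox eoCre Il5tg, in which Cre recombinase is expressed from the eosinophil peroxidase (Epx) locus, and the control mice were eoCre Il5tg with intact Atg5, a gene required for autophagy. All 12 libraries thus came from mice with the Cre allele, which replaces one copy of Epx, and with an Il5 transgene driven by the T cell promoter Cd3d that raises eosinophil numbers, so mice without the transgene were not compared. Age, strain background and the number of animals behind a library are not in the labels, so p-values measure the spread between these samples, which may be technical. The cells had been enriched by removing other cells with antibodies, CD8a, CD90.2 and Ly6G among their targets, and no antibody to a monocyte or NK cell marker is named.

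MHC class I molecules consist of a polymorphic heavy chain and beta 2-microglobulin, are found on almost all nucleated cells and show peptides from the cytosol to CD8 T cells. MHC class II molecules are pairs of alpha and beta chains that show peptides from endocytosed material to CD4 T cells, and they are made mainly by B cells, dendritic cells and macrophages, whereas eosinophils are usually described as low in class II unless stimulated. Both kinds of gene share an arrangement of promoter boxes bound by the RFX complex (Rfx5, Rfxap, Rfxank) and NF-Y (Nfya, Nfyb, Nfyc), on which the co-activator NLRC5 acts for class I and CIITA for class II.

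Library totals ran from 18885052 to 30270166 counts. Levels are given as CPM, counts scaled to a common library total, after TMM normalization across all 12 libraries, and the 3 values of a group always follow the order of replicates 1, 2 and 3. The targeted gene Atg5 lay at 41.4, 45.4 and 40.5 CPM in control and 30.6, 31.3 and 33.9 CPM in Atg5-knockout bone marrow. The blood libraries held 45.3, 58.7 and 40.1 CPM in control and 36.6, 52.4 and 52.4 CPM in Atg5-knockout. The bone marrow groups did not overlap, but the difference did not pass the edgeR quasi-likelihood test (log2 -0.44, SE 0.11, adjusted p = 0.157), and the blood groups overlapped (log2 -0.0079, adjusted p = 1.0). The count covers the whole gene, reads outside the deleted part included, so the groups are named by their labels, which the Atg5 count does not check in blood. The paper separately analysed Atg5 by quantitative PCR and ATG5 protein by immunoblot in eosinophils of both tissues and genotypes. Eosinophil markers were present in all libraries, and the granule protein gene Epx lay at 5138, 3348 and 3601 CPM in control and 4915, 5038 and 4776 CPM in Atg5-knockout bone marrow. Its blood levels were 461, 466 and 946 CPM in control and 265, 541 and 419.8 CPM in Atg5-knockout. The 10 eosinophil markers summed to 72192 to 94476 CPM in bone marrow and to 17462 to 47232 CPM in blood. In each genotype 6 of the 10 were called lower in blood and 2 higher, the surface receptors Siglecf (345 to 464 CPM in bone marrow and 591 to 931 CPM in blood) and Ccr3 (586 to 1118 CPM and 1025 to 1975 CPM). The eosinophil sum was lowest in replicate 1 of both blood groups, at 25796 CPM in control and 17462 CPM in Atg5-knockout. Markers of other cell types were also present in the blood libraries, as set out below. The sums of B cell, T cell, neutrophil and Ly6C-low monocyte markers were highest in both replicates numbered 1. In bulk RNA, fewer cells of a type and less RNA per cell cannot be told apart. Control blood replicate 1 also held 167913 CPM of red cell transcripts, against 4581 to 16612 CPM in the other blood libraries, and removing the red cell genes before the fit left the member counts given below at 22, 26 and 0.

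Of the 33 genes, 20 lie on chromosome 17, and 19 of those lie in the stretch from 33915899 to 37274484 that holds the mouse MHC (GRCm38, the build in the header of the table). A promoter entry, from 250 bases before to 50 bases after the annotated start, was found in RefSeq (GRCm38.p6) for 24 of the 33 genes. The letters TGANG followed after 10 to 30 bases by ATTGG, searched on both strands, were used as a simple rendering of the core of an X2 box next to a Y box, the element bound by NF-Y. They were chosen after these sequences had been seen. The pair was present in the windows of 11 of the 24 genes (B2m, H2-Aa, H2-D1, H2-DMb1, H2-Eb1, H2-K1, H2-M3, H2-Ob, H2-Q4, H2-Q6 and H2-Q7). Some genes have several windows. By window, the pair was in 12 of the 30 windows of the 24 genes and in 4.68% of all 32851 promoter windows. ATTGG alone was present for 21 of the 24 genes, in 23 of the 30 windows and in 37.4% of all windows. A match of letters is a description and not a binding site. Stretches from 8 members are printed below in the direction of transcription, 4 of class I and 4 of class II, so that genes with large, small and library-dependent differences between the tissues can be compared. Capitals mark TGANG and ATTGG, which lay 17 to 21 bases apart.
H2-K1 (chr17:34000344-34000428, minus strand): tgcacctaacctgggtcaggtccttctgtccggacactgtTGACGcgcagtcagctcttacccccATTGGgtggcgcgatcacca
H2-D1 (chr17:35262953-35263037, plus strand): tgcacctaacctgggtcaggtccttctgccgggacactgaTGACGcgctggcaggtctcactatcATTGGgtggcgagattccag
H2-Q7 (chr17:35439051-35439134, plus strand): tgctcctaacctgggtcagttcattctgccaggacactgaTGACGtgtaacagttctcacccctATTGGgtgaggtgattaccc
B2m (chr2:122147569-122147653, plus strand): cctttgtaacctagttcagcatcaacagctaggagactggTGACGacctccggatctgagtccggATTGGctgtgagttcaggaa
H2-Aa (chr17:34287852-34287937, minus strand): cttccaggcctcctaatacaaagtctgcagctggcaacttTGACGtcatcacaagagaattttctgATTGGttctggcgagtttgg
H2-Eb1 (chr17:34305744-34305827, plus strand): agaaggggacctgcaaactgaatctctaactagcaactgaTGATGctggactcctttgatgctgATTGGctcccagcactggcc
H2-DMb1 (chr17:34153065-34153149, plus strand): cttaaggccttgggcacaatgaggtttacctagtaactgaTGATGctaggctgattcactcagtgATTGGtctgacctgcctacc
H2-Ob (chr17:34238786-34238867, plus strand): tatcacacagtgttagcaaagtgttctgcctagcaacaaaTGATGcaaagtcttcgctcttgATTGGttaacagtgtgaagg
The sequences of H2-K1 and H2-D1, the classical heavy chains, carry TGACG, as do those of H2-Q7, B2m and H2-Aa. In H2-Eb1, H2-DMb1 and H2-Ob the corresponding letters read TGATG.

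The level of each gene per kilobase of exon (CPM per kb), the scale on which genes can be compared, spanned a wide range. In control bone marrow B2m, the shared light chain of class I, was highest at 1427 ± 108 CPM per kb (mean ± SD, n = 3), above H2-D1 at 616 ± 34, H2-K1 at 229 ± 15.9 and Cd74, the invariant chain of class II, at 140.3 ± 9.53. The class II chains H2-Ab1 (46.3 ± 2.92 CPM per kb) and H2-Aa (43.7 ± 0.947 CPM per kb) were neighbours in this order and differed by less than the SD of H2-Ab1. The lowest were the co-activators Ciita (0.643 ± 0.137 CPM per kb) and Nlrc5 (0.533 ± 0.0223 CPM per kb) and Mr1, which presents vitamin B metabolites to MAIT cells (0.322 ± 0.0459 CPM per kb). In control blood B2m (4163 ± 873 CPM per kb) and H2-D1 (1591 ± 329 CPM per kb) again came first, but Cd74 at 664 ± 249 CPM per kb then stood before H2-K1 at 444 ± 36.7 CPM per kb, a difference below the SD of Cd74. Atg5-knockout libraries gave the same 4 leading genes in the same order in each tissue.

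Most of the machinery was higher in blood than in bone marrow, in both genotypes. Of the 33 genes, 20 were higher and 2 lower in control blood at an adjusted p under 0.05 (edgeR), where 34.2% of all 13669 genes tested were called, 16.2% higher and 18% lower. In Atg5-knockout mice 25 were higher and 1 lower, against 47.6% of 13853 genes called, 23.5% higher and 24.1% lower. In both genotypes 20 genes were called higher and 1 lower, and 6 were called in neither. Beyond a log2 difference of 2, 6 genes were called in control, where 9.58% of all genes passed that rule, and 7 in Atg5-knockout, where 11.4% did. The 3 blood and 3 bone marrow libraries did not overlap for 27 genes in each genotype, 25 of them higher in blood, and 23.5% (control) and 27.7% (Atg5-knockout) of all genes were separated in that direction. The other 2 in each genotype were lower, as were 26.6% and 32.3% of all genes. The median log2 difference was 0.82 in control and 0.92 in Atg5-knockout for the 33 genes, and -0.0029 and -0.010 for all genes tested. By role, the control medians were 2.06 for the 8 class II genes, 1.26 for the 10 non-classical genes with B2m counted among them, 1.15 for the 2 classical class I genes, 0.67 for the 5 peptide loading genes and 0.36 for the 8 regulators. The count in control dropped from 22 to 13 without bone marrow replicate 3 and to 14 with library totals as the only scaling.

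**Figure D1:**
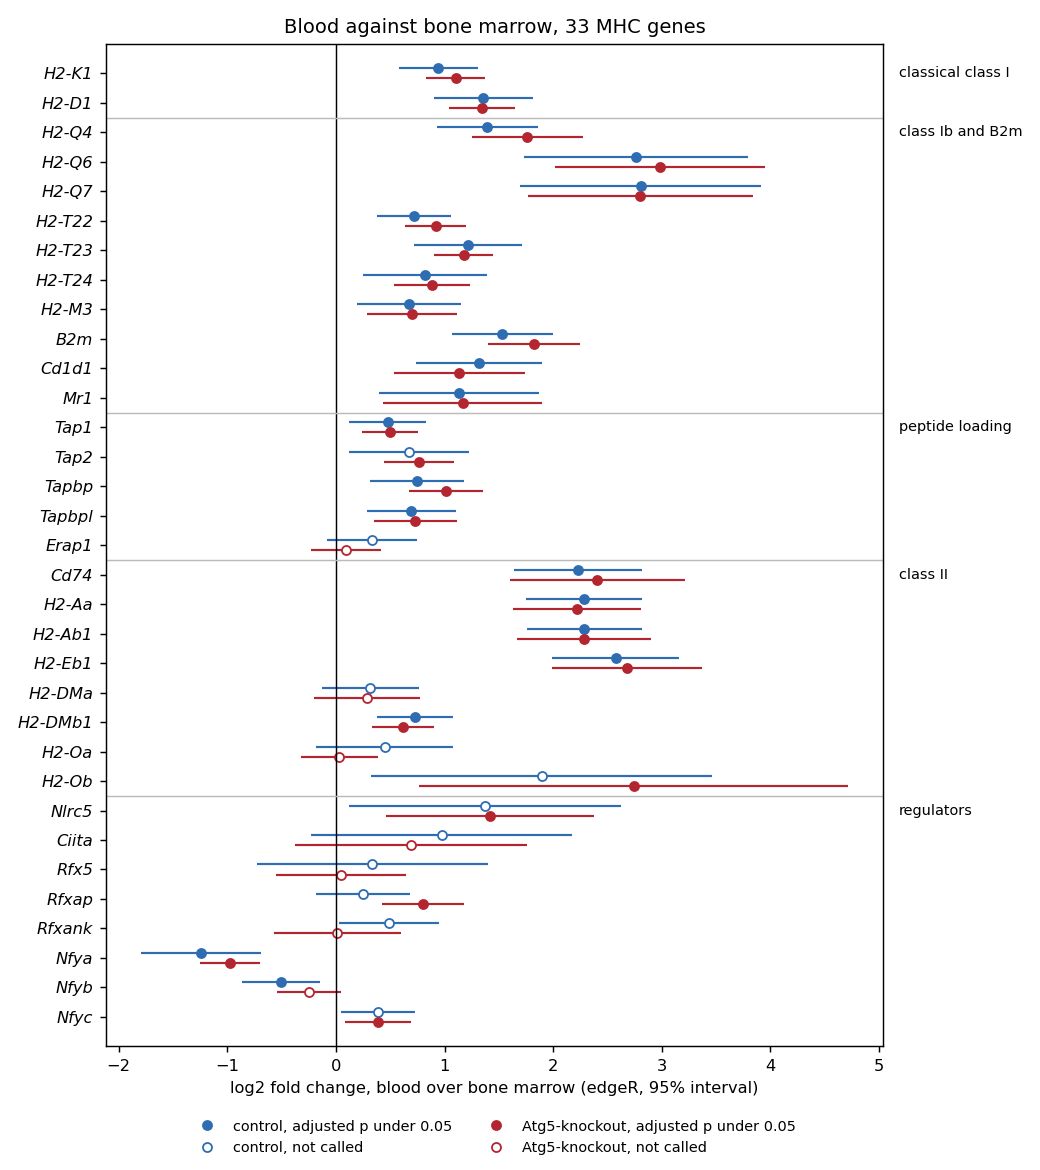
Log2 difference between blood and bone marrow (horizontal axis) for each of the 33 genes by role, in control and in Atg5-knockout mice, with the 95% interval of the edgeR fit on 3 libraries per group, and filled symbols where the adjusted p was under 0.05. H2-Eb1, H2-Q6, H2-Q7, Cd74, H2-Aa and H2-Ab1 lie farthest to the right with filled symbols in both genotypes, while H2-Ob is filled in Atg5-knockout only, and Nfya lies to the left in both.

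The classical heavy chains, which present cytosolic peptides to CD8 T cells, were about 2-fold higher in blood or more. H2-K1 lay at 596, 639.6 and 557 CPM in control and 601, 586 and 635 CPM in Atg5-knockout bone marrow. Levels in blood were 1056, 1175 and 1245 CPM in control and 1335, 1219.7 and 1314 CPM in Atg5-knockout. All 6 blood values were above all 6 bone marrow values, by 1.92-fold in control (log2 0.94, SE 0.16, edgeR adjusted p = 0.00256) and 2.15-fold in Atg5-knockout (log2 1.10, SE 0.12, edgeR adjusted p = 1.37e-04). H2-D1 lay at 1659.9, 1614 and 1491 CPM in control and 1628, 1461 and 1726 CPM in Atg5-knockout bone marrow. In blood it stood at 3285, 4044 and 4979 CPM in control and 3859, 4108 and 4159 CPM in Atg5-knockout. Blood and bone marrow were again separated, by 2.56-fold in control (log2 1.36, SE 0.20, edgeR adjusted p = 0.0013) and 2.55-fold in Atg5-knockout (log2 1.35, SE 0.13, edgeR adjusted p = 8.13e-05). Control blood replicate 1 was the lowest blood library for both genes.

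B2m, the light chain without which class I heavy chains do not reach the surface, lay at 1144, 1328 and 1210.3 CPM in control and 1189.9, 1134 and 1209 CPM in Atg5-knockout bone marrow. Blood libraries had 2770.4, 3715 and 4254 CPM in control and 3053, 4397 and 4914 CPM in Atg5-knockout. Here the replicates numbered 1 were the lowest of their blood groups, yet above every bone marrow library, and the difference was 2.89-fold in control (log2 1.53, SE 0.21, edgeR adjusted p = 8.13e-04) and 3.53-fold in Atg5-knockout (log2 1.82, SE 0.19, edgeR adjusted p = 9.80e-05). H2-T23, which encodes Qa-1, a ligand of the NKG2A receptor, lay at 278, 240.1 and 248 CPM in control and 260.4, 233 and 260.4 CPM in Atg5-knockout bone marrow. Values in blood were 420.0, 629 and 743 CPM in control and 534, 602 and 548 CPM in Atg5-knockout. It was 2.32-fold higher in control blood (log2 1.21, SE 0.22, edgeR adjusted p = 0.00344) and 2.26-fold higher in Atg5-knockout blood (log2 1.18, SE 0.12, edgeR adjusted p = 9.90e-05), without overlap of the tissues.

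The Qa-2 genes showed the widest differences of the class I genes. H2-Q7 lay at 2.8, 3.8 and 3.64 CPM in control and 2.62, 4.92 and 5.41 CPM in Atg5-knockout bone marrow. Blood gave 45, 15.5 and 11.9 CPM in control and 51.5, 21.6 and 16 CPM in Atg5-knockout. All 6 blood libraries were above all 6 of bone marrow, and this held for its neighbour too. H2-Q6 lay at 3.16, 4.78 and 3.91 CPM in control and 2.93, 4.7 and 5.23 CPM in Atg5-knockout bone marrow. The blood libraries held 48.6, 15.9 and 16.6 CPM in control and 57.6, 22.1 and 20.6 CPM in Atg5-knockout. The replicates numbered 1 were 2.70- to 3.28-fold above the mean of the other blood libraries of their genotype for this pair. H2-Q7 was 6.99-fold higher in control blood (log2 2.81, SE 0.49, edgeR adjusted p = 0.00293) and 6.97-fold higher in Atg5-knockout blood (log2 2.80, SE 0.46, edgeR adjusted p = 0.00119), and H2-Q6 6.77-fold (log2 2.76, SE 0.46, edgeR adjusted p = 0.00226) and 7.9-fold (log2 2.98, SE 0.43, edgeR adjusted p = 6.00e-04). Without blood replicate 1 the log2 differences were 2.0 and 2.14 for H2-Q7 and 2.03 and 2.33 for H2-Q6, and all 4 were still called. H2-Q6 and H2-Q7 are near-identical copies, and reads that map to several places are not in the counts, so the levels of single H2-Q and H2-T genes are uncertain. H2-Q4, a further gene of the Q region, lay at 12.8, 19.2 and 17.5 CPM in control and 15.8, 15.1 and 17.4 CPM in Atg5-knockout bone marrow. Its blood levels were 42.3, 39.3 and 49.6 CPM in control and 74.3, 48.1 and 39.6 CPM in Atg5-knockout. The tissues did not overlap (log2 1.39, adjusted p = 0.00127 in control and log2 1.76, adjusted p = 3.27e-04 in Atg5-knockout, edgeR). A stretch of 19.1% of its exon bases also belongs to a gene on the opposite strand, and reads on both were not counted.

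The other class Ib genes were also called in both genotypes, at smaller differences. H2-T22, whose product is bound by some gamma delta T cells, lay at 45.3, 51.9 and 45.5 CPM in control and 49.8, 42.7 and 48.9 CPM in Atg5-knockout bone marrow. Levels in blood were 81, 82.9 and 73.3 CPM in control and 92.6, 91.1 and 80.6 CPM in Atg5-knockout. The tissues did not overlap (log2 0.72 in control, adjusted p = 0.00688, and 0.92 in Atg5-knockout, adjusted p = 4.24e-04, edgeR), and 29.4% of its exon bases overlap another gene. H2-T24 lay at 46.6, 25 and 35.5 CPM in control and 37.1, 47.7 and 37.9 CPM in Atg5-knockout bone marrow. In blood it stood at 75.4, 66.2 and 49.2 CPM in control and 84.7, 74.1 and 65.2 CPM in Atg5-knockout. Each blood library exceeded those of bone marrow in its genotype, by log2 0.82 (adjusted p = 0.0344) and 0.88 (adjusted p = 0.00162). H2-M3, which presents peptides that start with formylmethionine, lay at 11.4, 8.89 and 11.2 CPM in control and 12.1, 12.5 and 11.3 CPM in Atg5-knockout bone marrow. Blood libraries had 18.8, 17.5 and 14.4 CPM in control and 22.5, 15.8 and 19.5 CPM in Atg5-knockout. Blood was likewise above bone marrow throughout, by log2 0.67 (adjusted p = 0.0375) and 0.70 (adjusted p = 0.0118).

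Non-classical molecules outside the MHC moved the same way. Cd1d1, which presents lipids to NKT cells, lay at 10.9, 13 and 11 CPM in control and 11.3, 13.6 and 14.5 CPM in Atg5-knockout bone marrow. Values in blood were 19, 32.2 and 36.2 CPM in control and 22.1, 21.8 and 42.2 CPM in Atg5-knockout. Each blood library exceeded each bone marrow library (log2 1.32, adjusted p = 0.00496 in control and 1.14, adjusted p = 0.00729 in Atg5-knockout, edgeR). Mr1 was low throughout, at 1.61, 2.09 and 2.09 CPM in control and 2.69, 1.7 and 2.28 CPM in Atg5-knockout bone marrow. Blood gave 5.0, 3.56 and 4.27 CPM in control and 5.48, 3.48 and 5.87 CPM in Atg5-knockout. It was likewise separated (log2 1.13, adjusted p = 0.0264 and 1.17, adjusted p = 0.0159). All 10 genes of the non-classical group, B2m included, were thus called higher in both genotypes.

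The genes that supply and load class I peptides showed smaller differences. Tap1, a subunit of the peptide transporter of the endoplasmic reticulum, lay at 87.8, 92.4 and 92.4 CPM in control and 99.6, 92 and 97.5 CPM in Atg5-knockout bone marrow. The blood libraries held 118, 147 and 118 CPM in control and 146, 131 and 127 CPM in Atg5-knockout. Blood was higher without overlap, by 1.39-fold in control (log2 0.48, SE 0.16, edgeR adjusted p = 0.0434) and 1.41-fold in Atg5-knockout (log2 0.50, SE 0.11, edgeR adjusted p = 0.0063). Its partner Tap2 lay at 104, 153 and 132 CPM in control and 125, 99.9 and 122 CPM in Atg5-knockout bone marrow. Its blood levels were 142, 247 and 238 CPM in control and 167, 202 and 215 CPM in Atg5-knockout. It passed in Atg5-knockout (log2 0.77, SE 0.14, edgeR adjusted p = 0.00235) and not in control (log2 0.67, SE 0.24, edgeR adjusted p = 0.0607), where blood replicate 1 was lowest and the call was made without it (log2 0.89, adjusted p = 0.00255). Tapasin (Tapbp), which tethers class I to the transporter, lay at 299.9, 359.7 and 309 CPM in control and 309, 307 and 292 CPM in Atg5-knockout bone marrow. Levels in blood were 432, 557 and 653 CPM in control and 490.0, 618 and 707 CPM in Atg5-knockout. It was higher in blood in control (log2 0.75, SE 0.19, edgeR adjusted p = 0.0159) and in Atg5-knockout (log2 1.01, SE 0.15, edgeR adjusted p = 7.19e-04).

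Tapbpl, the tapasin-related peptide editor, lay at 15, 12.8 and 13.2 CPM in control and 15.1, 17.2 and 16.4 CPM in Atg5-knockout bone marrow. In blood it stood at 22.6, 24 and 20.2 CPM in control and 30.7, 27.6 and 21.7 CPM in Atg5-knockout. The tissues were separated in both genotypes (log2 0.70, adjusted p = 0.0173 and 0.73, adjusted p = 0.00703, edgeR). Erap1, the aminopeptidase that trims peptides to class I length, was called in neither: it spanned 52.9 to 79.3 CPM in bone marrow and 62.5 to 91.1 CPM in blood, with log2 differences of 0.33 in control and 0.089 in Atg5-knockout (adjusted p = 0.186 and 0.631). Exons of Tap1 overlap those of Psmb9 over 3.87% of their bases, and those of Erap1 overlap Cast over 11.5%. Tap2 overlaps Gm15821 over 14.1% and Gm20496 over 4.36%, and Tapbp overlaps Gm19412 over 20.2% and Zbtb22 over 1.85%. Reads in these overlaps were not counted.

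The class II alpha and beta chains and the invariant chain had some of the largest differences among the 33 genes. H2-Ab1, the beta chain of I-A, lay at 77.1, 79.8 and 70.5 CPM in control and 83.7, 71.9 and 85.5 CPM in Atg5-knockout bone marrow. Blood libraries had 505, 281 and 334 CPM in control and 580.2, 299 and 282 CPM in Atg5-knockout. All blood libraries were above all bone marrow libraries, by 4.88-fold in control (log2 2.29, SE 0.23, edgeR adjusted p = 1.89e-04) and 4.87-fold in Atg5-knockout (log2 2.29, SE 0.27, edgeR adjusted p = 2.11e-04). Its partner H2-Aa lay at 80.9, 84 and 81 CPM in control and 92.4, 79.1 and 94.9 CPM in Atg5-knockout bone marrow. Values in blood were 551, 299 and 359 CPM in control and 584, 373 and 268 CPM in Atg5-knockout. The separation was alike, at 4.87-fold (log2 2.29, SE 0.24, edgeR adjusted p = 2.06e-04) and 4.65-fold (log2 2.22, SE 0.26, edgeR adjusted p = 2.00e-04). H2-Eb1, the beta chain of I-E, lay at 36, 39 and 35.4 CPM in control and 40.2, 34.6 and 44.8 CPM in Atg5-knockout bone marrow. Blood gave 309, 154 and 201 CPM in control and 389, 207 and 162 CPM in Atg5-knockout. It was 5.96-fold (log2 2.58, SE 0.26, edgeR adjusted p = 1.71e-04) and 6.41-fold (log2 2.68, SE 0.31, edgeR adjusted p = 1.72e-04) higher in blood. H2-Ea, the I-E alpha chain, which mice of the H2b haplotype do not transcribe, had 0 counts in all 12 libraries. In each blood group replicate 1 was highest for these chains.

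Cd74, which guides new class II molecules to the endosome, lay at 210.0, 199.9 and 183 CPM in control and 216, 191 and 222 CPM in Atg5-knockout bone marrow. The blood libraries held 1340.1, 698 and 772 CPM in control and 1836, 837 and 626 CPM in Atg5-knockout. It was 4.7-fold higher in control blood (log2 2.23, SE 0.26, edgeR adjusted p = 3.95e-04) and 5.3-fold higher in Atg5-knockout blood (log2 2.41, SE 0.36, edgeR adjusted p = 7.06e-04). Without blood replicate 1 the differences of the 4 genes were smaller and all were still called: 3.69-fold and 3.52-fold for Cd74, 4.03-fold and 3.65-fold for H2-Ab1, 3.99-fold and 3.64-fold for H2-Aa, and 4.79-fold and 4.66-fold for H2-Eb1, in control and Atg5-knockout. The median of the 8 class II genes without it was 1.29 in control and 1.2 in Atg5-knockout, on the log2 scale.

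Smaller differences were measured for the genes that exchange class II peptides. H2-DMb1, a subunit of the peptide exchange factor H2-DM, lay at 38.1, 42.1 and 39.14 CPM in control and 46.3, 39.8 and 42.1 CPM in Atg5-knockout bone marrow. Its blood levels were 73.7, 65 and 61 CPM in control and 68.8, 66.7 and 59 CPM in Atg5-knockout. It was called in both genotypes (log2 0.73, adjusted p = 0.00698 and 0.62, adjusted p = 0.00354, edgeR), with blood above bone marrow in all libraries. Its partner H2-DMa spanned 60.5 to 76 CPM in bone marrow and 57.6 to 108 CPM in blood and was called in neither genotype (log2 0.32, adjusted p = 0.244 and 0.28, adjusted p = 0.307). Per kilobase, H2-DMa stood at 0.705 to 0.905 of H2-Ab1 in the 6 bone marrow libraries and at 0.186 to 0.268 in the 6 blood libraries, whereas Cd74 stood at 2.91 to 3.16 and 2.58 to 3.67 of H2-Ab1. H2-Oa and H2-Ob form H2-DO, an inhibitor of H2-DM typical of B cells. H2-Oa spanned 14.9 to 22.1 CPM in bone marrow and 15.2 to 31.7 CPM in blood and was called in neither genotype (log2 0.45, adjusted p = 0.242 and 0.033, adjusted p = 0.88), and 15.2% of its exon bases overlap another gene.

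H2-Ob lay at 2.74, 3.34 and 4.11 CPM in control and 3.64, 2.96 and 3.5 CPM in Atg5-knockout bone marrow. Levels in blood were 29.3, 4.92 and 4.22 CPM in control and 56.5, 5.24 and 4.75 CPM in Atg5-knockout. Its level in blood rested on 1 library in each genotype: the replicates numbered 1 were 6.40-fold (control) and 11.3-fold (Atg5-knockout) above the mean of the others, which were near the bone marrow level. It was called in Atg5-knockout (log2 2.74, SE 0.87, edgeR adjusted p = 0.0286) and not in control (log2 1.89, SE 0.69, edgeR adjusted p = 0.0627), and without blood replicate 1 in neither (log2 0.42, adjusted p = 0.278 and 0.58, adjusted p = 0.0778). In contrast to H2-Aa and H2-Eb1, whose promoters are printed above with it, its blood libraries of replicates 2 and 3 exceeded the bone marrow libraries by little.

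**Figure D2:**
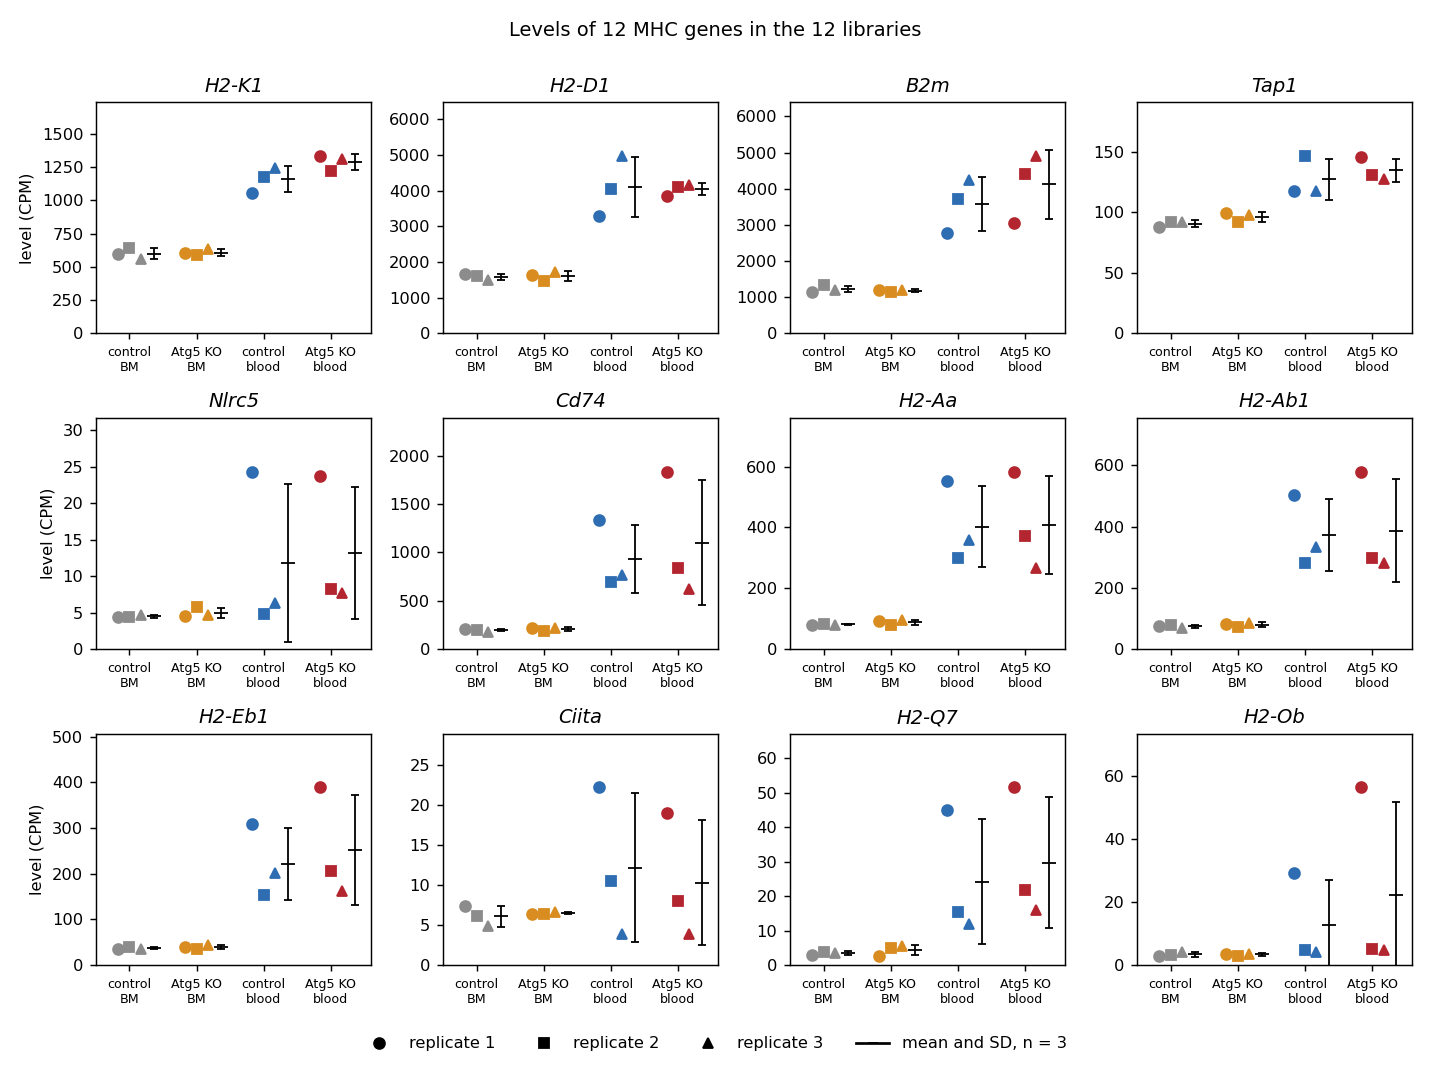
CPM (vertical axes, linear, from 0) of 12 genes in each library by group (BM, bone marrow; KO, Atg5-knockout), with symbols for replicates 1, 2 and 3 and bars for mean ± SD (n = 3), cut at 0 where the SD exceeds the mean. H2-K1, H2-D1, B2m and Tap1 have no blood library that stands far above the others of its group, whereas for Nlrc5, Ciita, H2-Q7 and H2-Ob replicate 1 lies well above the others in both blood groups.

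The regulators gave both directions. Nlrc5, the class I co-activator, lay at 4.47, 4.37 and 4.73 CPM in control and 4.56, 5.74 and 4.68 CPM in Atg5-knockout bone marrow. In blood it stood at 24.3, 4.88 and 6.38 CPM in control and 23.6, 8.26 and 7.66 CPM in Atg5-knockout. The replicates numbered 1 were 4.32-fold (control) and 2.97-fold (Atg5-knockout) above the others, and the gene was called in Atg5-knockout (log2 1.42, SE 0.42, edgeR adjusted p = 0.0217) but not in control (log2 1.37, SE 0.55, edgeR adjusted p = 0.0855). Without blood replicate 1 the log2 difference was 0.31 in control (adjusted p = 0.374) and 0.69 in Atg5-knockout (adjusted p = 0.0231). Ciita, the class II co-activator, lay at 7.45, 6.11 and 4.83 CPM in control and 6.37, 6.43 and 6.66 CPM in Atg5-knockout bone marrow. Blood libraries had 22.2, 10.5 and 3.83 CPM in control and 19, 8.08 and 3.88 CPM in Atg5-knockout. The highest and the lowest of the 12 values were thus both in control blood. It was called in neither genotype (log2 0.98, SE 0.53, edgeR adjusted p = 0.186, and log2 0.69, SE 0.47, edgeR adjusted p = 0.257). Without blood replicate 1 the estimates were 0.22 and -0.10, while H2-Aa, H2-Ab1 and H2-Eb1 were still called.

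Of the NF-Y subunits, Nfya was the one gene called lower in blood in both genotypes, at 81.8, 63.8 and 62.9 CPM in control and 73.1, 84.1 and 82.2 CPM in Atg5-knockout bone marrow. Values in blood were 38.1, 30.8 and 20.1 CPM in control and 43, 37.5 and 40.2 CPM in Atg5-knockout. The tissues did not overlap, and the level dropped to 0.423 of that of bone marrow in control (log2 -1.24, SE 0.24, edgeR adjusted p = 0.00511) and to 0.51 in Atg5-knockout (log2 -0.97, SE 0.12, edgeR adjusted p = 2.97e-04). Nfyb lay at 76.7, 74.6 and 76.3 CPM in control and 62.8, 64.1 and 61.7 CPM in Atg5-knockout bone marrow. Blood gave 47.5, 62.4 and 51.6 CPM in control and 45.7, 51.2 and 60.2 CPM in Atg5-knockout. It was lower in control blood (log2 -0.51, SE 0.16, edgeR adjusted p = 0.0374), and in Atg5-knockout the estimate was -0.25 (adjusted p = 0.149). Nfyc lay at 27.9, 27.3 and 27.3 CPM in control and 28.2, 26 and 27.1 CPM in Atg5-knockout bone marrow. The blood libraries held 35.1, 34.9 and 38.8 CPM in control and 34, 31.7 and 39.7 CPM in Atg5-knockout. It was called higher in Atg5-knockout alone (log2 0.39, SE 0.14, edgeR adjusted p = 0.0404), and the control estimate was 0.39 (adjusted p = 0.0752). The tissues were nevertheless separated in both genotypes for Nfyb and Nfyc.

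Among the RFX subunits, Rfxap lay at 21.6, 19.2 and 16.2 CPM in control and 16.9, 14.1 and 20.1 CPM in Atg5-knockout bone marrow. Its blood levels were 20.4, 25.5 and 22.3 CPM in control and 27.3, 30.4 and 30.6 CPM in Atg5-knockout. It was higher in Atg5-knockout blood (log2 0.80, SE 0.17, edgeR adjusted p = 0.00397), and the control estimate was 0.25 (adjusted p = 0.341). Rfx5, the subunit that contacts DNA, and Rfxank were called in neither genotype, with log2 differences of 0.34 and 0.044 for Rfx5 and 0.48 and 0.014 for Rfxank. Rfx5 spanned 3.0 to 5.65 CPM in bone marrow and 1.93 to 7.8 CPM in blood, and Rfxank 8.64 to 10.3 CPM in bone marrow and 6.33 to 13.3 CPM in blood. Their exons overlap other genes over 26.8% and 33.8% of their bases, where reads were not counted. A gene called in 1 genotype and not in the other is not shown to differ between them, and the test of that difference called none of the 33, as given with the knockout comparisons.

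Whether the class II genes followed the eosinophils or other cells of the blood preparations cannot be told apart from bulk counts, so the levels of other cell types are set beside them. The 8 class II genes summed to 494 to 580 CPM in bone marrow, to 2927, 1605 and 1825 CPM in control blood, and to 3648, 1883 and 1479 CPM in Atg5-knockout blood. The 13 B cell markers summed to 414 to 446 CPM in bone marrow, to 1844, 636 and 438 CPM in control blood, and to 3061, 814 and 656 CPM in Atg5-knockout blood. For both sums, replicate 1 was highest in each blood group. The B cell sum of control blood replicate 3 lay within the bone marrow range. T cell markers followed the order of the B cell markers, with 160, 23.4 and 13.1 CPM in control blood and 222, 38.7 and 24.8 CPM in Atg5-knockout blood, against 4.93 to 7.52 CPM in bone marrow. Their part in the class II levels was not tested.

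In control blood replicate 3, 4 of the 13 B cell markers were above every bone marrow library, 6 below and 3 within their range. Those above were Igkc at 77.4 CPM, Bank1 at 184 CPM, Cd22 at 2.7 CPM and Cd79a at 5.1 CPM, and those below included Ms4a1 (CD20) at 0.0491 CPM and Ighm at 162 CPM. That library held H2-Ab1 at 334 CPM and Cd74 at 772 CPM, above all 6 bone marrow libraries, with Ciita at 3.83 CPM, below all 6 of them. Markers of Ly6C-low monocytes and NK cells were higher in every blood library than in any of bone marrow. A list of genes of Ly6C-low blood monocytes, written after the levels of other markers had been seen, summed to 16.9 to 23.5 CPM in bone marrow and to 391, 286 and 293 CPM in control and 445, 359 and 282 CPM in Atg5-knockout blood, and NK cell markers to 1.92 to 4.79 CPM in bone marrow and 243 to 505 CPM in blood. The Ly6C-low monocyte sum was highest in replicate 1 of both blood groups, as the class II sum was. The NK cell sum was highest in replicate 1 of control blood and lowest in replicate 1 of Atg5-knockout blood. Of the 11 monocyte and macrophage markers, 5 were called higher and 2 lower in control blood, and 4 higher and 4 lower in Atg5-knockout blood. Csf1r, the receptor for the monocyte growth factor CSF1, spanned 245 to 297 CPM in bone marrow and 785 to 918 CPM in blood, whereas F13a1 spanned 442 to 627 CPM and 109 to 272 CPM, and Ly6c2, a marker of Ly6C-high monocytes, 1002 to 1422 CPM and 546 to 1122 CPM. The 11 markers together summed to 2190 to 2704 CPM in bone marrow and 1839 to 2318 CPM in blood, the 8 dendritic cell markers to 103 to 116 CPM and 137 to 224 CPM, and macrophage genes such as C1qa and Ms4a7 were near 0 in both tissues. The part of monocytes and dendritic cells in the class II levels was not tested.

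**Figure D3:**
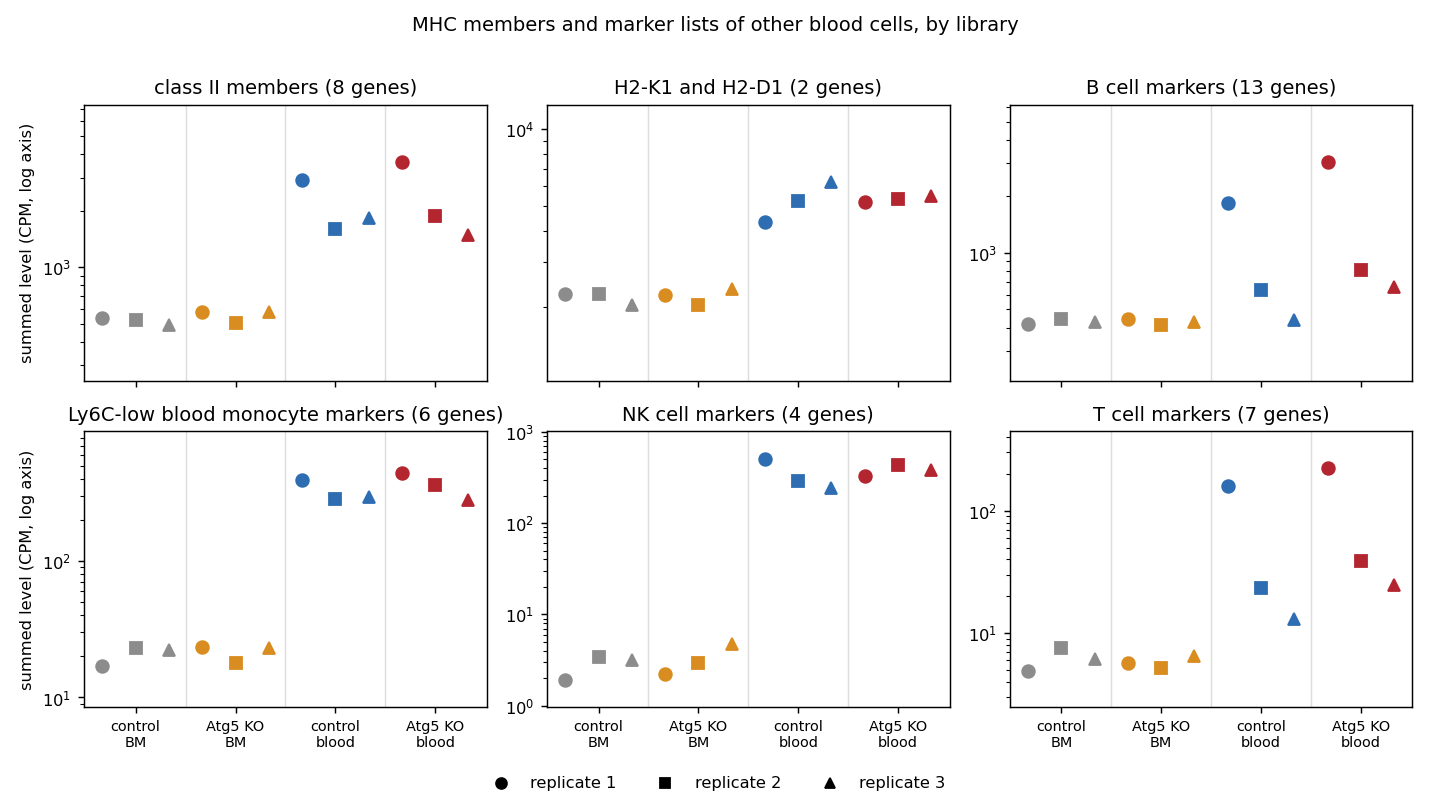
Summed CPM (vertical axes, logarithmic) in each library for the class II genes, for H2-K1 with H2-D1, and for B cell, Ly6C-low monocyte, NK cell and T cell markers, by group and replicate. B cell, T cell and Ly6C-low monocyte markers peak in replicate 1 of both blood groups, as the class II sum does. H2-K1 with H2-D1 is lowest in replicate 1 among the control blood libraries. Ly6C-low monocyte and NK cell markers are higher in all 6 blood libraries than in any bone marrow library.

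Across all 33 genes, replicate 1 was the highest library of both blood groups for 16 (48.5%) and the lowest of both for 7 (21.2%), where the shares over all 13460 genes tested in blood were 24.3% and 22.6%. By role, it was highest for 7 of the 8 class II genes, 4 of the 10 genes of the non-classical group, 4 of the 8 regulators, 1 of the 5 peptide loading genes and neither of the classical heavy chains. The 7 for which it was lowest were B2m, H2-D1, H2-T23, Tap2, Tapbp, Nfyb and Rfxap. Without blood replicate 1, 22 members were called higher and 1 lower in control and 24 higher and 1 lower in Atg5-knockout. The medians in control were then 1.25 for the classical genes and 1.42 for the non-classical group, on the log2 scale, against 1.15 and 1.26 with it.

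Other genes of the pathways were counted from lists that exclude the 33. On the class I side, 20 genes were in the table and 15 were tested, of which 2 were higher and 5 lower in control blood and 6 higher and 6 lower in Atg5-knockout blood, with median log2 differences of -0.14 and 0.35. Over all genes, 16.2% were called higher and 18% lower in control, and 23.5% and 24.1% in Atg5-knockout. The lower genes included chaperones of the endoplasmic reticulum that fold class I. Calr (calreticulin) lay at 1441, 1301 and 1259.5 CPM in control and 1379, 1614 and 1264 CPM in Atg5-knockout bone marrow. Levels in blood were 364, 305 and 327 CPM in control and 398, 360.5 and 346 CPM in Atg5-knockout. It was called in both genotypes (log2 -2.02, adjusted p = 5.39e-05 and -1.93, adjusted p = 1.65e-05, edgeR), and the tissues did not overlap. Canx (calnexin; -1.04 and -1.04), Pdia3 of the loading complex (-0.86 and -1.03) and the disulphide isomerase Pdia6 (-1.27 and -1.52) were called lower in control and Atg5-knockout, on the log2 scale, while the class Ib gene H2-Q10 was called higher (2.26 and 2.59), with the uncertainty of the H2-Q genes given above.

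On the class II side, 18 genes were listed and 16 tested, of which 7 were higher in control blood and 11 in Atg5-knockout blood and none lower, with medians of 0.86 and 0.99, beside 16.2% and 23.5% of all genes called higher. Cd274, the inhibitory ligand PD-L1, lay at 15.3, 19.7 and 20.0 CPM in control and 12.5, 10.1 and 14.8 CPM in Atg5-knockout bone marrow. In blood it stood at 207, 121 and 217 CPM in control and 184, 121 and 299.8 CPM in Atg5-knockout. Every blood library was above every bone marrow library (log2 3.30, adjusted p = 4.40e-05 and 4.03, adjusted p = 2.74e-05, edgeR). The co-stimulatory ligand Cd80 (2.81 and 2.81) and the class II processing proteases Lgmn (1.87 and 1.62) and Ctss, which degrades the invariant chain (1.18 and 1.21), were called higher in both genotypes. The list of interferon and related signalling genes had 17 members, all tested, of which 5 were higher and none lower in control, and 7 higher and 3 lower in Atg5-knockout, with medians of 0.20 and 0.049. The share of all genes called in either direction was 34.2% and 47.6%, so these counts lay near the background. The interferon receptor kinases Jak1 (1.18 and 1.14) and Jak2 (0.91 and 1.16) and the cytokine signalling inhibitor Socs3 (1.45 and 2.11) were called higher in both.

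The question of the study, whether loss of Atg5 in eosinophils changed their RNA, gave no call among the 33 genes in bone marrow: 0 passed an adjusted p under 0.05 with edgeR, where 0.348% of 13781 genes did, and 0 with DESeq2 or limma-voom. At an unadjusted p under 0.05, 1 gene passed, against 9.67% of all genes. This was Nfyb, with 76.7, 74.6 and 76.3 CPM in control and 62.8, 64.1 and 61.7 CPM in Atg5-knockout bone marrow, so that the groups did not overlap (log2 -0.30, SE 0.094, edgeR adjusted p = 0.287). In the other direction Tapbpl, Erap1 and Rfx5 did not overlap, with log2 differences of 0.22, 0.19 and 0.44 (adjusted p = 0.626, 0.65 and 0.519), and over all genes 5.67% were separated downwards and 8.68% upwards. The 33 estimates ran from -0.30 to 0.44, and each 95% interval lay within 1 log2 unit of 0. For H2-K1 the interval was -0.23 to 0.22, for H2-D1 -0.25 to 0.22, for H2-Ab1 -0.18 to 0.29 and for Cd74 -0.18 to 0.29.

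In blood 0 of the 33 passed as well, where 0.0371% of 13460 genes were called, and 0 with DESeq2 or limma-voom. None reached an unadjusted p under 0.05, against 2.58% of all genes. With the replicate number as a block, 4 did, as did 1021 of all 13460 genes, and 0 of the 33 passed the adjusted threshold. The groups did not overlap for Rfxap alone, higher in Atg5-knockout (log2 0.39, SE 0.19, edgeR adjusted p = 1.0), where 3.53% of all genes were separated in that direction and 4.06% in the other. The estimates ran from -0.40 to 0.82, but the intervals, from the fit without the block, were wide: 22 of 33 lay within 1 log2 unit of 0, and the bounds reached from -1.76 to 3.18. The interval was -0.22 to 0.57 for H2-K1 and -0.49 to 0.48 for H2-D1, -0.67 to 0.81 for H2-Ab1 and -0.69 to 1.18 for Cd74, -1.76 to 1.32 for Ciita and -1.55 to 3.18 for H2-Ob. A 2-fold difference thus lay outside the intervals of H2-K1, H2-D1 and H2-Ab1 and inside those of Cd74, Ciita and H2-Ob.

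**Figure D4:**
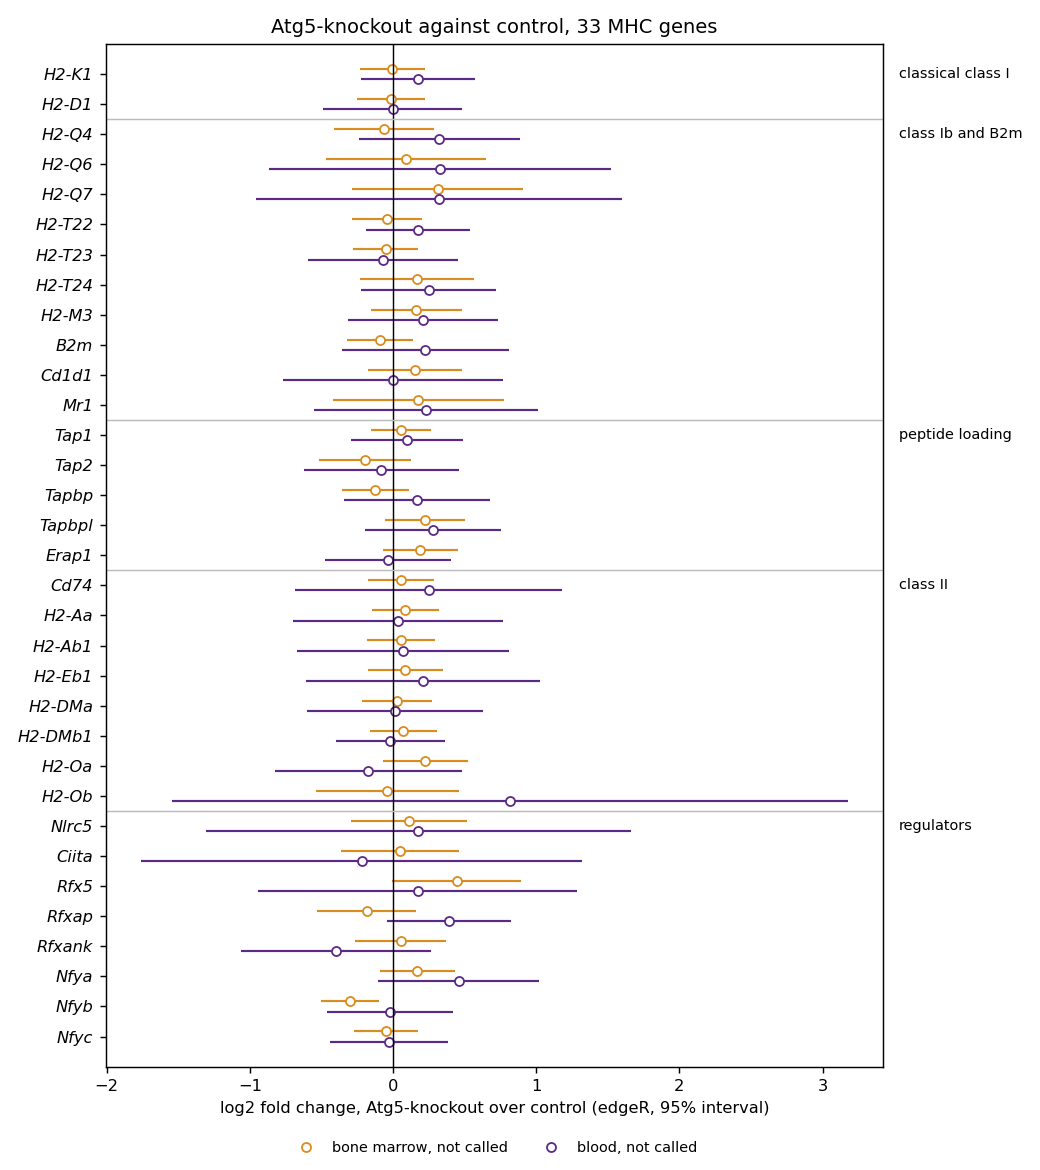
Log2 difference between Atg5-knockout and control (horizontal axis) for the 33 genes by role, in bone marrow and in blood, with the 95% interval of the edgeR fit on 3 libraries per group. All symbols are open, since none had an adjusted p under 0.05, and the intervals in blood are wider than those in bone marrow for genes such as H2-Ob, Nlrc5 and Ciita.

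An interaction of genotype and tissue, fitted on all 12 libraries, was called for 0 of the 33 genes, where 0% of 14712 genes were called and 5.03% had an unadjusted p under 0.05. None of the 33 reached that level. The lowest p was that of Rfxap (log2 0.53, SE 0.24, edgeR adjusted p = 0.942, unadjusted p = 0.0505). The same contrast compares the tissue difference between the genotypes. Of the other pathway genes, 0 were called between Atg5-knockout and control in either tissue on the class I side, on the class II side or among the interferon and related genes. At an unadjusted p under 0.05 there were 0 in either tissue on the class I side, and 0 in bone marrow and 1 in blood among the interferon and related genes. On the class II side there were 0 in blood and 6 of 16 in bone marrow, where 9.67% of all genes reached that p. By lowest p they were led by Lgmn (log2 0.50, SE 0.13, edgeR adjusted p = 0.177), higher in Atg5-knockout, and by Marchf1 (-0.41), Cd274 (-0.59), Icosl (-0.34) and Crebbp (-0.28), with log2 estimates below 0, and the median of the 16 was -0.062.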

How the data were processed

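Eosinophils from bone marrow and blood were measured by RNA-seq in 12 libraries, 3 for each of 4 groups, taken from the sample titles. Per the paper's Methods, stranded mRNA libraries were read as single ends on one lane. The authors deposited raw counts per gene, counted with featureCounts 2.0.1 on the Ensembl 92 annotation of GRCm38 according to the table's header, which shows no option for strand, for reads mapping to several places or for reads overlapping several genes, so such reads were not counted. The Methods and the processing notes (HISAT2 2.2.1) also name GRCm39, and no coordinate was converted. Symbols for 49674 identifiers came from GENCODE, and promoters from RefSeq GRCm38.p6.

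The whole table was fitted per comparison with edgeR 4.0.16 in R 4.3.3 (quasi-likelihood test, TMM, filter with minimum count 10 and total 15, prior count 0.125, Benjamini-Hochberg adjustment over all genes tested), with 6 libraries per fit and 12 for the interaction. The threshold for a call was an adjusted p below 0.05. On simulated counts with the real means, 100 genes were changed at each fold. That is far fewer than were called between the tissues, so recovery between tissues may differ in the data. Between genotypes, 2-fold changes were recovered for 76% of changed genes in bone marrow and 11% in blood (13781 and 13460 genes). Between tissues they were recovered for 19% in control and 47% in Atg5-knockout (13669 and 13853 genes). 4-fold changes were recovered for 93%, 62%, 73% and 77%. For the interaction, fitted on 14712 genes, 7% of 2-fold and 57% of 4-fold changes were recovered. The alternatives were other scalings and filters, DESeq2 1.42.0, limma-voom 3.58.1, a replicate block, all libraries in one fit and leaving out each library.

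Values by library were given for members with a call in a comparison and for Ciita, Nlrc5, H2-K1, H2-D1, B2m, Tap1, Cd74, H2-Aa, H2-Ab1 and H2-Eb1, and at most 5 genes of lowest p were named per further list. The 33 members, the lists and the marker genes were chosen with earlier results of these data known. The Ly6C-low monocyte list and the promoter letters were added after values or sequences had been seen. Same-numbered blood libraries of the 2 genotypes deviated together (r over genes of 0.50, 0.21 and 0.30). Whether they were paired is not in the labels, so the main fits had no replicate block and the block was an alternative. Other markers (neutrophils, platelets) were summed but not set beside the members. Neutrophil markers gave 9186 to 14724 CPM in bone marrow. In blood they gave 7782, 5538 and 1198 CPM in control and 10084, 4369 and 2649 CPM in Atg5-knockout. Platelet markers gave 149 to 205 CPM in bone marrow and 71.4 to 352 CPM in blood.

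One item is not reported here.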

Additional observations from a re-analysis of the deposited data

How the results depend on the processing

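No member called between the tissues changed direction under any alternative. With library totals as the only scaling, which shifted the median of all genes by -0.31 in control and -0.24 in Atg5-knockout on the log2 scale, 14 members were called in control (12 higher, 2 lower) in place of 22. Leaving out one library gave 13 to 23 in control, the lowest without control bone marrow replicate 3, and 21 to 27 in place of 26 in Atg5-knockout. In control 13 of the 22 called members were called under every alternative and 7 of the 11 others under some, and in Atg5-knockout 19 of 26 and 2 of 7. Counts between genotypes and of the interaction stayed at 0 in all alternatives run, while estimates of uncalled members changed sign under some alternative for 11 members in bone marrow and 22 in blood. With the replicate block, 0 members were called between genotypes in either tissue or in the interaction, 22 between tissues in control and 25 in Atg5-knockout. Whether same-numbered blood libraries are pairs is not in the labels, and the block changed no member's call between genotypes there. In the other comparisons, same-numbered samples had correlations of -0.15 to 0.13. A fit without both blood replicates numbered 1 and one without red cell genes, both chosen after seeing the data, gave 0 calls between genotypes in blood. The cause of these changes was not tested. The 3 libraries per group and the spread between blood libraries limit what could be detected.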

Other observations

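Some ratios between class I or class II components separated the tissues and others overlapped, on the per-kilobase scale and as a description without a test. B2m stood at 1.31 to 1.55 times the summed H2 class I heavy chains in the 6 bone marrow libraries and at 1.51 to 2.38 times in the 6 blood libraries. H2-D1 stood at 2.52 to 2.81 times H2-K1 in bone marrow and at 2.92 to 4.04 times in blood, without overlap. Among the class II chains, H2-Aa over H2-Ab1 spanned 0.917 to 1.0 in bone marrow and 0.830 to 1.09 in blood, so the partners of I-A overlapped between tissues in their ratio, whereas H2-Eb1 over H2-Ab1 spanned 0.647 to 0.725 and 0.757 to 0.955. H2-DMb1 over H2-DMa, the partners of the peptide exchange factor, spanned 0.615 to 0.769 in bone marrow and 0.701 to 1.13 in blood. H2-Ob over H2-Oa spanned 0.0539 to 0.0968 in bone marrow and 0.0556 to 0.934 in blood, with the top of that range in a library numbered 1.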
